A study of Homo sapiens with 8 samples.

Results

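The hypoxia response and glycolysis genes described here are 46 genes chosen by symbol, out of 18478 genes in the deposited table, and all 46 were found through their Entrez identifiers. They comprise the hypoxia-inducible factor (HIF) subunits, the oxygen sensors that act on them, 16 genes known as HIF targets, and the transporters, enzymes and regulators of glycolysis and lactate handling. Each gene was given a single role, so genes listed under other roles, enzymes of glycolysis among them, can be HIF targets too. All 46 genes were measured by RNA-seq of total RNA in C8161 and A2058, established human melanoma cell lines. In each line, cells carrying retrovirally introduced ATF3, a stress-inducible transcription factor, were set against cells of the same line given a neomycin control. Culture was in DMEM containing 10% fetal bovine serum. The sources used here do not give the oxygen level, the time between transduction and harvest, the promoter driving ATF3, whether transduced cells were cloned, or whether the C8161 libraries are separate cultures. C8161 has 3 libraries per arm, which the table holds as 1 combined value per arm, and A2058 has 1 library per arm. Each arm therefore has 1 value per gene, no comparison below could be tested, and every difference describes these values alone.

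As background, HIF is a dimer of an oxygen-labile alpha subunit and the stable beta subunit ARNT. With oxygen, EGLN prolyl hydroxylases mark the alpha subunit for destruction; without it, the dimer binds a short DNA sequence (core ACGTG, or in a variant form GCGTG) and switches on genes for glucose uptake, glycolysis, acid export, vessel growth and mitochondrial removal. Much of the control acts on HIF protein, so the RNA level of an alpha subunit need not follow the level of its targets. Tumour cells often run glycolysis at a high rate with oxygen present.

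Values are RPKM, read numbers scaled to transcript length and library size, which can be set side by side between genes. Differences are log2 ratios of RPKM + 1, which understate the differences of low genes, over genes with at least 1 RPKM in either column compared. ATF3 itself was at 62.6 RPKM with introduced ATF3 against 4.76 RPKM in control C8161, and at 4.71 against 1.22 RPKM in A2058. In the 4 columns, 10866 to 11753 genes reached 1 RPKM. Low values in the A2058 columns fall on steps that place each near 18000000 reads, whereas the combined C8161 columns show no clear steps and their depth is unknown. The 9 melanocyte lineage markers examined all reached 1 RPKM in both A2058 columns, with a summed level of 1557 and 1521 RPKM. In C8161, 1 of the 9 reached 1 RPKM with ATF3 and 0 in the control, with sums of 1.74 and 1.60 RPKM, so these defining markers are near absent there. Of 8 endothelial markers, 2 reached 1 RPKM in each of the 4 columns, and their sums were 81.9 and 76.9 RPKM in C8161 against 5.19 and 3.96 RPKM in A2058. Fibroblast markers summed to at most 0.99 RPKM in C8161 and 21.8 RPKM in A2058, and leukocyte markers to between 30.4 and 41.3 RPKM, mostly CD68. Their part in the results below was not tested. In bulk RNA, a gene expressed by fewer cells and a gene with less RNA per cell cannot be told apart.

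The first comparison sets the members in the neomycin controls of the lines side by side, C8161 over A2058. C8161 had lower levels of 13 of 16 HIF targets and of both glucose transporters, whereas several of the most abundant glycolytic enzymes differed by less. By 2-fold or more, 18 of 46 members were lower in control C8161, where 20.7% of the 12372 genes compared were, and 2 were higher, where 9.36% of genes were. In all, 12 members were above 0, where 40.7% of genes were, and 34 below 0, where 59.3% were. The median log2 ratio of the members was −0.84, against −0.19 over all genes compared; relative to that shift the members' median was −0.65. BNIP3, PFKM, PFKP, PGAM1 and SLC16A1 lay slightly below 0 and turn to the higher side once this shift is taken out. The control columns are also the denominators of the ATF3 comparisons below, so the comparisons share them.

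**Figure D1:**
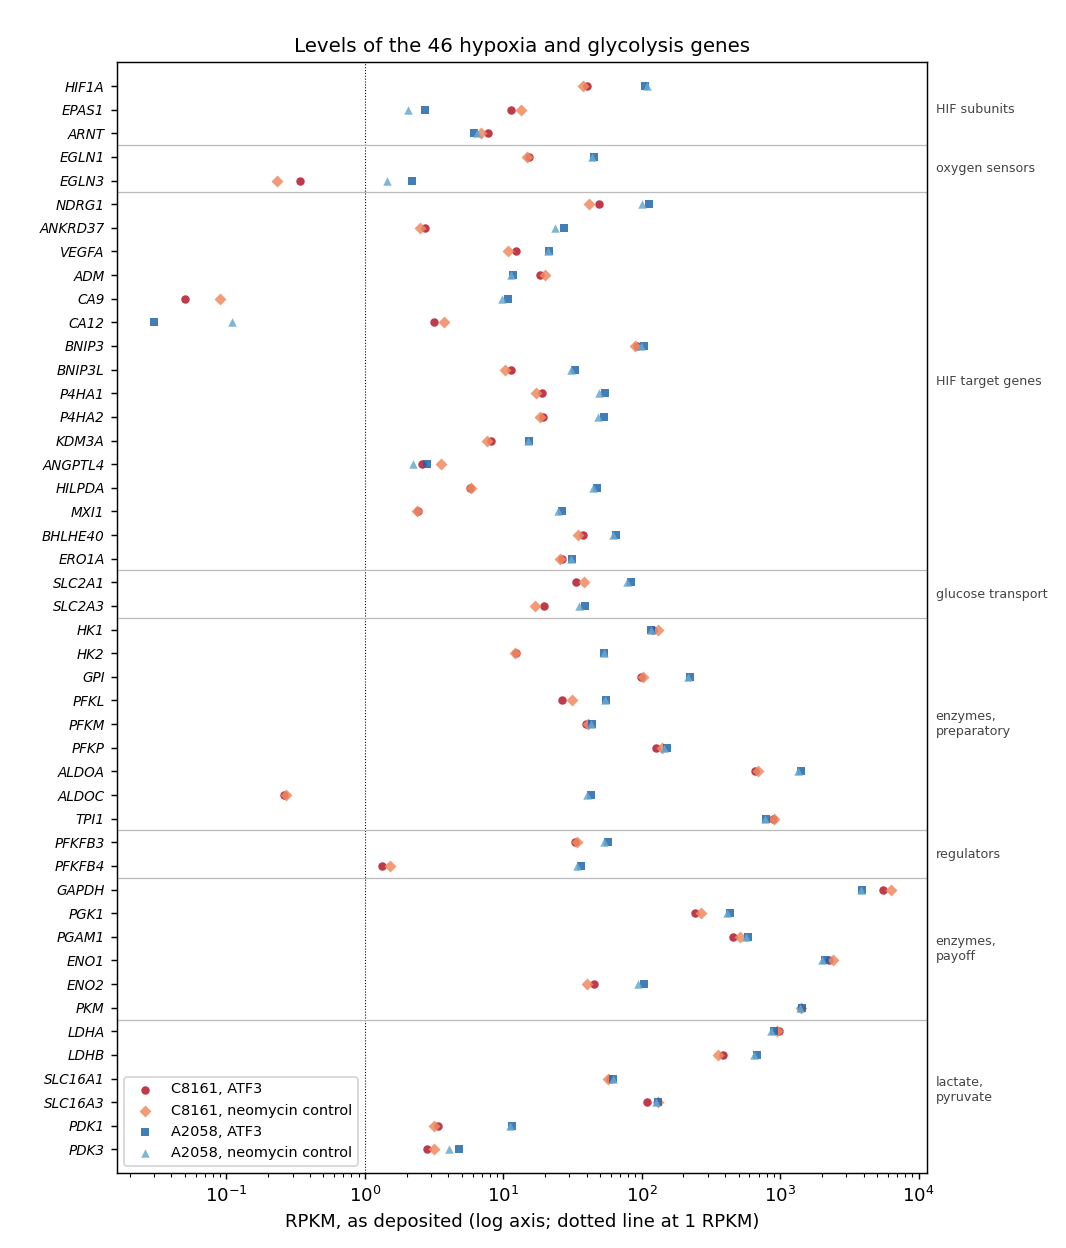
RPKM of each of the 46 members (log axis) in C8161 with ATF3, C8161 control, A2058 with ATF3 and A2058 control, ordered by role; 1 point per column, with no error since each arm has 1 value. The columns of a line lie close together for most members and part most at some members of low level, under 1 RPKM (dotted line) or little above it. The lines part at CA9, CA12, ALDOC, PFKFB4, MXI1, ANKRD37, HILPDA and EPAS1.

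Among the HIF subunits, the alpha subunits differed between the lines in opposite directions, with HIF1A the more abundant in both lines. HIF1A, the broadly used alpha subunit (Entrez gene 3091; chromosome 14, 61695513 to 61748258, GRCh38), was at 40.33 RPKM with ATF3 and 37.79 RPKM in the control in C8161, and at 106.4 and 108.57 RPKM in A2058. Its control level in C8161 was 2.87-fold lower. EPAS1, which encodes the second alpha subunit HIF-2 alpha (Entrez gene 2034; chromosome 2, 46297407 to 46386697), was at 11.34 and 13.31 RPKM in C8161 and at 2.71 and 2.05 RPKM in A2058, so that its control level in C8161 was 6.49-fold higher. EPAS1 thus made up 26.0% of the summed alpha subunit RPKM in control C8161 and 1.85% in control A2058. ARNT was at 7.76 and 6.86 RPKM in C8161 and at 6.13 and 6.43 RPKM in A2058. Its relative ARNT2, from the list of other HIF regulators and named after its values were seen, was at 0.13 and 0.14 RPKM in C8161 and at 15.2 and 16.4 RPKM in A2058.

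Both oxygen sensors among the members were lower in C8161. EGLN1, the main HIF prolyl hydroxylase and itself a HIF target, was at 15.37 and 14.85 RPKM in C8161 and at 45.48 and 43.98 RPKM in A2058. EGLN3, a strongly hypoxia-induced family member, was at 0.34 and 0.23 RPKM in C8161 and at 2.19 and 1.45 RPKM in A2058. Of the regulators outside the members, VHL, the ubiquitin ligase subunit that recognises hydroxylated HIF alpha, was at 12.65 RPKM in control C8161 and 13.16 RPKM in control A2058. HIF1AN, the asparaginyl hydroxylase that blocks HIF activity, was at 10.83 and 9.11 RPKM in the same columns. EGLN2, another HIF prolyl hydroxylase, was at 36.88 RPKM in control C8161 and 54.47 RPKM in control A2058, above EGLN1 in each. VHL, HIF1AN and EGLN2 were named after their values were seen.

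Of the 16 HIF targets, 8 were lower in control C8161 by 2-fold or more, where 20.7% of all genes were, and 1 was higher, where 9.36% were. The median target stood at 10.6 RPKM in control C8161 and 27.7 RPKM in control A2058. The membrane carbonic anhydrases, which acidify the space outside the cell, stood in opposite order. CA9 was at 0.05 and 0.09 RPKM in C8161 and at 10.84 and 9.86 RPKM in A2058, whereas CA12 was at 3.17 and 3.70 RPKM in C8161 and at 0.03 and 0.11 RPKM in A2058. About 33.0% of the CA9 transcript overlaps another gene, ARHGEF39. MXI1, a MAX partner that opposes MYC, was at 2.41 and 2.36 RPKM in C8161 and at 26.6 and 24.82 RPKM in A2058. ANKRD37, an ankyrin repeat protein, was at 2.71 and 2.48 RPKM in C8161 and at 27.41 and 23.66 RPKM in A2058, but 61.8% of its longest transcript is shared with the overlapping gene UFSP2 and its value is uncertain. HILPDA, which coats lipid droplets and blocks their breakdown, was at 5.76 and 5.81 RPKM in C8161 and at 47.5 and 44.65 RPKM in A2058. The other targets that were lower by 2-fold or more were NDRG1, a stress-response gene, the mitophagy receptor BNIP3L, and P4HA1 and P4HA2, catalytic subunits of the collagen prolyl hydroxylase. Their log2 ratios in control C8161 over control A2058 lay between −1.48 and −1.25.

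BNIP3, the paralog of BNIP3L that also marks mitochondria for removal, did not share this difference, at 89.89 RPKM in control C8161 and 98.86 RPKM in control A2058. ADM, which encodes the vasodilator peptide adrenomedullin, and ANGPTL4, a secreted inhibitor of lipoprotein lipase, were on the higher side in C8161, with ADM at 20.05 RPKM in control C8161 against 11.27 RPKM in control A2058 and ANGPTL4 at 3.52 against 2.23 RPKM. VEGFA, the main vessel growth factor, was at 10.84 against 20.93 RPKM in the same columns. The histone demethylase KDM3A was at 7.68 against 15.09 RPKM, the circadian repressor BHLHE40 at 34.44 against 61.59 RPKM, and the protein disulfide oxidase ERO1A at 25.55 against 30.89 RPKM.

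**Figure D2:**
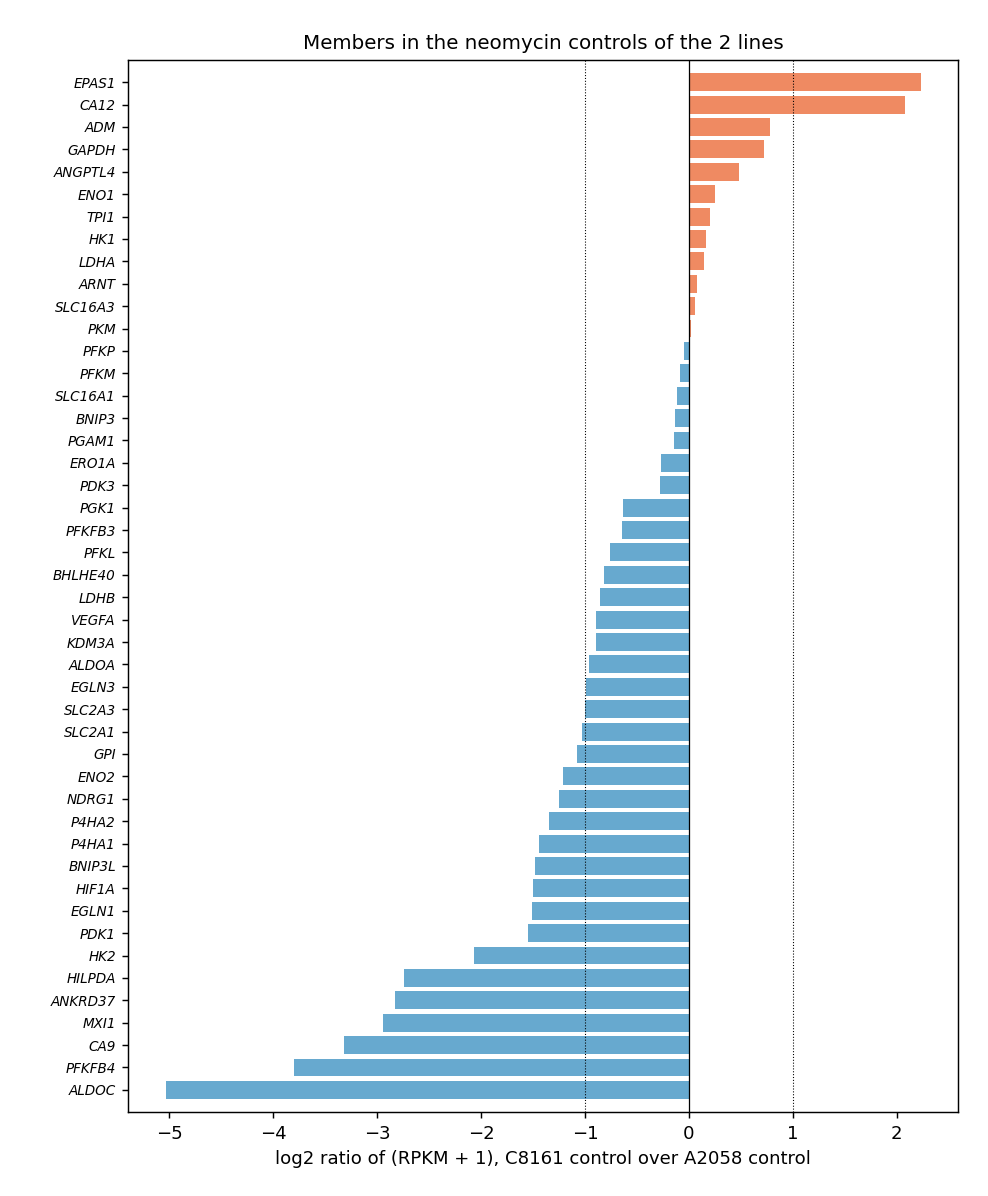
Log2 ratio of RPKM + 1 of each member in control C8161 over control A2058, with bars to the right where C8161 is higher and dotted lines at 2-fold. EPAS1 and CA12 lie beyond 2-fold on the C8161 side, and 18 members from SLC2A3 to ALDOC lie beyond it on the A2058 side.

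Along glycolysis, the median enzyme had a log2 ratio of −0.14 in control C8161 over control A2058, and 4 of 15 enzymes were lower by 2-fold or more, a share near the 20.7% of all genes. The glucose transporters SLC2A1 (GLUT1) and SLC2A3 (GLUT3) were at 38.04 and 17.03 RPKM in control C8161 against 78.79 and 35.07 RPKM in control A2058. GAPDH was the most abundant gene of the whole table in each of the 4 columns, at 5542 and 6273 RPKM in C8161 and at 3911 and 3811 RPKM in A2058, and ENO1 ranked 9 to 13. Quantile normalization, which gives equal ranks equal values, sets every ratio of GAPDH to 0. The 15 glycolytic enzymes together held 2.53% and 2.69% of the summed RPKM in C8161 with ATF3 and control, and 2.41% and 2.36% in A2058. PKM, pyruvate kinase, was at 1410 RPKM in control C8161 and 1392 RPKM in control A2058. TPI1 was at 898 and 779 RPKM in these controls, and LDHA, which makes lactate, at 947 and 854 RPKM. LDHA in control C8161 over control A2058 turns to the lower side after quantile normalization and once its GC and length dependence is taken out. GPI and ALDOA were lower in C8161, at 101.51 against 215.61 RPKM and at 689 against 1346 RPKM.

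Shares of several isozymes differed between the lines, in both directions. LDHA held 72.6% of lactate dehydrogenase RPKM in control C8161 and 57.0% in control A2058, and PFKFB3 held 95.8% and 61.3% of the PFKFB pair. HK2, the inducible hexokinase, was at 12.43 and 12.08 RPKM in C8161 and at 52.93 and 53.69 RPKM in A2058, and held 8.44% of the hexokinase RPKM in control C8161 against 31.4% in control A2058. PFKFB4, which makes the activator of phosphofructokinase, was at 1.32 and 1.51 RPKM in C8161 and at 36.53 and 33.93 RPKM in A2058, and held the other 4.24% of the pair in control C8161 and 38.7% in control A2058. ALDOC, the brain-type aldolase, was at 0.26 and 0.27 RPKM in C8161 and at 43.15 and 40.46 RPKM in A2058. ENO2, the neuronal enolase, was at 44.89 and 40.01 RPKM in C8161 and at 104.64 and 94.19 RPKM in A2058, and made up 1.64% and 4.46% of enolase RPKM in the controls. For LDHB, the lactate dehydrogenase subunit that favours pyruvate, 58.5% of the longest transcript is shared with other genes, so the shares within its pair are uncertain. PDK1, a kinase that inhibits pyruvate dehydrogenase, was at 3.35 and 3.16 RPKM in C8161 and at 11.55 and 11.20 RPKM in A2058. By contrast, the lactate exporters SLC16A3 (MCT4) and SLC16A1 (MCT1) were at 131.89 and 57.47 RPKM in control C8161 and at 126.18 and 62.45 RPKM in control A2058. PFKP held most of the phosphofructokinase RPKM in both controls, 66.1% in C8161 and 59.9% in A2058. PFKM came next in control C8161, with 19.2% against 14.8% for PFKL, whereas in control A2058 PFKM held 17.8% and PFKL 22.3%.

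**Figure D3:**
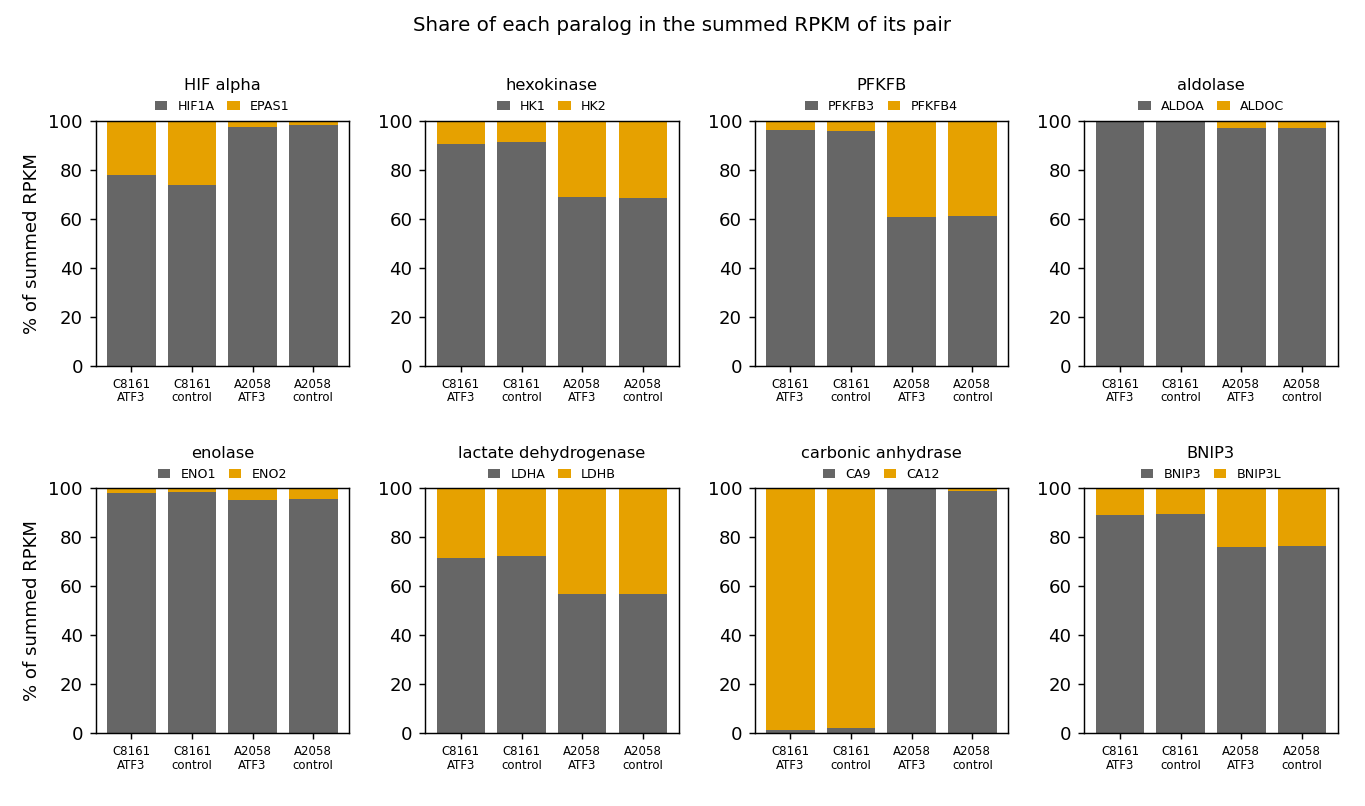
Share of each paralog in the summed RPKM of its pair, in percent, for 8 pairs in C8161 with ATF3, C8161 control, A2058 with ATF3 and A2058 control. EPAS1 and CA12 take larger shares in C8161, and HK2, PFKFB4, ALDOC, ENO2, LDHB and BNIP3L take larger shares in A2058.

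The second comparison asks how the members stood in A2058 with introduced ATF3 against the A2058 control. They were shifted together by small amounts to the higher side. CA12 was under 1 RPKM in both columns, and of the 45 members compared 40 were above 0 and 5 below, where 51.3% and 48.1% of the 11883 genes compared were, and the median log2 ratio was 0.07 against 0.00 over all genes. Past 1.2-fold on this scale, 2 members were higher, where 2.02% of genes were, and 0 lower, where 1.51% were. From the estimated depth and the longest transcript of each gene, reads behind each value can be approximated; 28 of the 45 members lay beyond the 95% interval of such counting error on the higher side and 0 on the lower, where 10.4% of 11754 genes lay beyond it on the higher side and 10.4% on the lower. The interval narrows as reads increase, so abundant genes such as many members pass it at smaller ratios. It covers counting error alone and not the spread between cultures, which 1 library per arm does not show.

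All 15 HIF targets compared were above 0, where 51.3% of all genes were. So were the 6 payoff-step enzymes, both glucose transporters and both PFKFB regulators. The targets had a median log2 ratio of 0.10 and a range of 0.02 to 0.23. NDRG1, on chromosome 8 (133237175 to 133297252), had 113.22 RPKM in ATF3 cells and 100.36 RPKM in control cells, a log2 ratio of 0.17. P4HA1 was at 54.11 against 48.76 RPKM and P4HA2 at 53.74 against 48.50 RPKM, both 1.11-fold higher. ANKRD37 was at 27.41 against 23.66 RPKM. BNIP3L was at 33.03 against 30.62 RPKM, MXI1 at 26.60 against 24.82 RPKM and BHLHE40 at 65.33 against 61.59 RPKM. ANGPTL4 had the highest log2 ratio of the targets, 0.23, at 2.79 against 2.23 RPKM, but rests on about 97 and 76 reads and lay inside its counting interval. VEGFA, KDM3A and ERO1A were within 0.03 of 0.

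Outside the targets, EGLN3 and EPAS1 were the members past 1.2-fold. EGLN3 was at 2.19 RPKM with ATF3 against 1.45 RPKM, or about 115 against 75 reads, with a log2 ratio of 0.38. EPAS1 was at 2.71 against 2.05 RPKM, or about 258 against 193 reads, with a log2 ratio of 0.28. HIF1A was at 106.4 against 108.57 RPKM and ARNT at 6.13 against 6.43 RPKM, both inside the counting interval. Each ratio was also set beside a level band, the middle 95% of ratios among the 500 genes closest to it in mean RPKM. In A2058, 5 members lay above it, where 2.60% of genes did, and 0 below, where 2.61% did. The 5 were EGLN3, NDRG1, ANKRD37, SLC2A3 and ENO2, with SLC2A3 at the edge of its band, at 0.153 against 0.152.

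The enzymes of glycolysis shared the direction at smaller size. Of 15 enzymes, 13 were above 0, where 51.3% of all genes were, and their median was 0.05. After quantile normalization 10 were above 0. GAPDH and ENO1, each of equal rank in both columns, are then set to 0, and PFKM fell just below 0. The share of all genes above 0 after that step was not computed. SLC2A3 was at 39.11 RPKM with ATF3 against 35.07 RPKM, SLC2A1 at 83.22 against 78.79 RPKM and ENO2 at 104.64 against 94.19 RPKM. ALDOA was at 1423 against 1346 RPKM, ENO1 at 2096 against 2016 RPKM, PKM at 1444 against 1392 RPKM and GAPDH at 3911 against 3811 RPKM. HK1 and HK2, the hexokinases that trap glucose in the cell, were at 116.94 against 117.07 RPKM and at 52.93 against 53.69 RPKM. PFKM turned from a ratio just above 0 to one just below after quantile normalization and once the GC and length dependence is taken out. The regulators PFKFB3 and PFKFB4 were at 56.91 against 53.78 RPKM and at 36.53 against 33.93 RPKM. PDK3, a kinase of pyruvate dehydrogenase, was at 4.79 against 4.03 RPKM, and LDHA and LDHB at 899 against 854 RPKM and 675 against 646 RPKM.

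**Figure D4:**
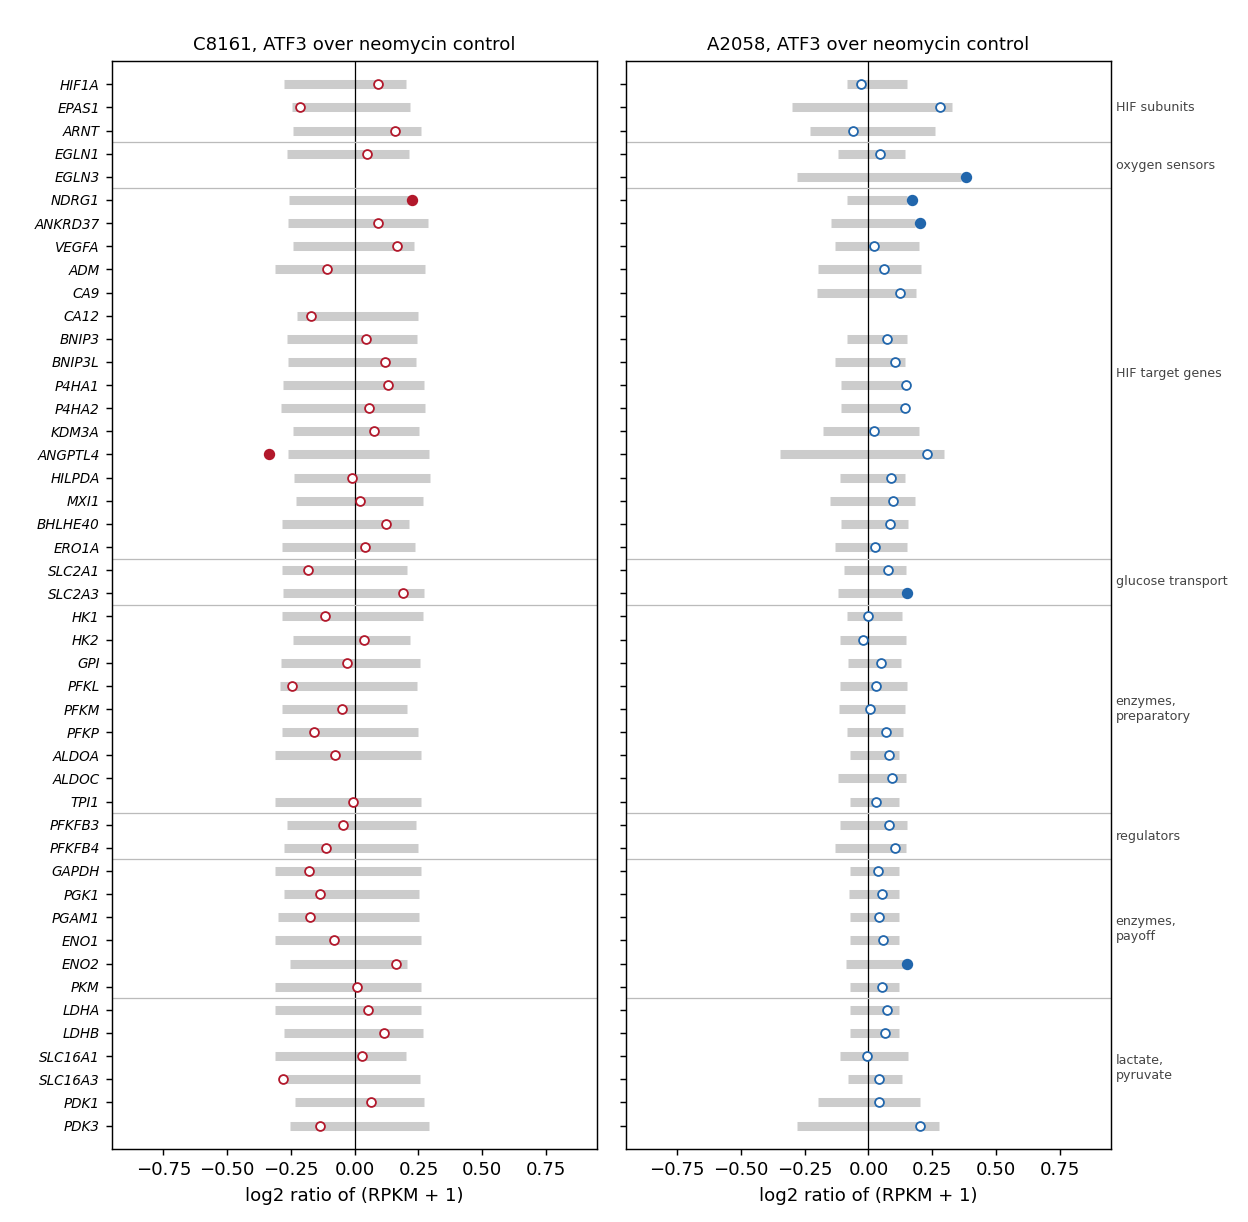
Log2 ratio of RPKM + 1 of each member, with ATF3 over neomycin control, in C8161 (left) and A2058 (right); grey bars are the level band, filled points lie outside it, and members under 1 RPKM in both columns have no point. In A2058 40 of 45 members lie right of 0 and 5 lie above the band. In C8161 22 of 43 lie right of 0, with NDRG1 at the upper edge, just above the band, and ANGPTL4 below it.

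Promoter sequence is shown for EGLN3, ANKRD37 and ENO2, which lay above the A2058 band, and for P4HA1 and BHLHE40, which lay inside it but ranked next among members with ratios of one sign in both lines once NDRG1, BNIP3L and SLC2A3 are passed over, so that the HIF core can be looked for in them. Shown are the 250 bases before the annotated start, read 5′ to 3′ on the gene's strand, from RefSeq on GRCh38.p14. On either strand, capitals mark the HIF core written as ACGTG and its variant form GCGTG. They also mark TGACGTCA, which ATF and CREB factors read, then TGACTCA, the site of AP-1, and its near relative TGACTAA. The palindrome CACGTG holds the first motif on both strands. The windows are chr14:33951075-33951324 (minus strand) for EGLN3, chr4:185396591-185396840 (plus) for ANKRD37, chr12:6914330-6914579 (plus) for ENO2, chr10:73096867-73097116 (minus) for P4HA1 and chr3:4979187-4979436 (plus) for BHLHE40.
EGLN3: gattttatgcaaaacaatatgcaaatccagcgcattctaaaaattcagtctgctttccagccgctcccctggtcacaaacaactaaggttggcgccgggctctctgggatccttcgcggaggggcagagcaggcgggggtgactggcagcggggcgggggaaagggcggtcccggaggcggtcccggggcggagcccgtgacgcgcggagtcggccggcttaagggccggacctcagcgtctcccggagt
ANKRD37: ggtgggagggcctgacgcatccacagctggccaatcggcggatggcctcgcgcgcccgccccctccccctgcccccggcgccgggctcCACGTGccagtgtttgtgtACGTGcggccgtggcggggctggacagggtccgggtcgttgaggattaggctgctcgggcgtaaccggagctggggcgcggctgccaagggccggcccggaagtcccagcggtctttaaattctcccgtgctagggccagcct
ENO2: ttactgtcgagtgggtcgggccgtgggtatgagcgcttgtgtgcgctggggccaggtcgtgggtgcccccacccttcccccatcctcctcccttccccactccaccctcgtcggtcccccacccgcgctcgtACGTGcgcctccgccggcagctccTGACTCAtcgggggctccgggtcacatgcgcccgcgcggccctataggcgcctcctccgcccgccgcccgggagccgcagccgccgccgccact
P4HA1: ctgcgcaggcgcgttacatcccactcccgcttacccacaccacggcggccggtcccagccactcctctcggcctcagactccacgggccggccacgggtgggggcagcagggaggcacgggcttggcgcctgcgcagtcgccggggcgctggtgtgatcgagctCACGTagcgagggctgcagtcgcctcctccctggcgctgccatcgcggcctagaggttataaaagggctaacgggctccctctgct
BHLHE40: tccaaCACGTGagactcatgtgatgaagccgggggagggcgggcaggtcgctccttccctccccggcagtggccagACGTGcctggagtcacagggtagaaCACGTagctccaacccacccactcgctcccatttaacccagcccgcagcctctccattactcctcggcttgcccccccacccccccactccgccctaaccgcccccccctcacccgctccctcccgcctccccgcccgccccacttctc
The ANKRD37, ENO2, P4HA1 and BHLHE40 windows hold ACGTG, and the ENO2 window also holds TGACTCA, whereas the EGLN3 window holds none of these motifs.

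Over all members with an entry, ACGTG was in 17 of 40 windows (42.5%), against 21.5% of the 14364 windows of genes in the table. GCGTG was in 15 of 40 (37.5%), against 41.0%. Of the 12 HIF targets with a window, 7 held ACGTG, as did 7 of the 15 glycolytic enzymes. LDHA held ACGTG and the single TGACGTCA among the members, where 2.46% of all windows hold TGACGTCA. TGACTCA was in 2 of 40 windows, those of CA9 and ENO2, against 3.14% of all windows, and TGACTAA was in 1, that of HK1, against 1.16%. A match is a description of these letters and not a measured binding site.

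The third comparison sets C8161 with introduced ATF3 against the C8161 control, where the ATF3 level was 62.6 against 4.76 RPKM. The members leaned by role: most HIF targets were on the higher side and most glycolytic enzymes on the lower side, all by small amounts. Among the members, 1 lay above its level band, where 2.65% of genes did, and 1 below, where 2.61% did. Of 43 members compared, 22 were above 0 and 21 below, where 52.0% and 47.3% of the 10941 genes compared were, and the members' median of 0.01 was that of all genes. Past 1.2-fold, 0 members were higher, where 2.19% of genes were, and 2 lower, where 2.71% were. EGLN3, CA9 and ALDOC were under 1 RPKM in both columns and are not among the 43. The depth of the C8161 columns is unknown, so no counting interval could be given. Among markers of other cell types, CDH5 and CD68 lay above their level bands in the same comparison. The endothelial CDH5 had 18.14 RPKM in ATF3 cells and 8.86 RPKM in control cells. The leukocyte marker CD68, which shares 97.4% of its transcript with other genes, had 37.58 and 29.03 RPKM. TIE1, the other endothelial marker compared, lay inside its band, at 62.77 and 67.2 RPKM. Their part in the members' ratios was not tested.

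Of 15 HIF targets compared, 11 were above 0, where 52.0% of all genes were. The targets' median log2 ratio was 0.06. NDRG1 was at 48.77 RPKM with ATF3 against 41.61 RPKM in the control, a log2 ratio of 0.22. It was the single member above its level band, where 2.65% of genes were, and lay at the band's edge, at 0.224 against 0.223. VEGFA was at 12.27 against 10.84 RPKM, P4HA1 at 19.01 against 17.26 RPKM, BHLHE40 at 37.60 against 34.44 RPKM and BNIP3L at 11.31 against 10.35 RPKM. On the lower side, ANGPTL4, on chromosome 19 (8364155 to 8374370), had 2.58 against 3.52 RPKM, a log2 ratio of −0.34, and was the single member below its band, where 2.61% of genes were. ADM was at 18.50 against 20.05 RPKM and CA12 at 3.17 against 3.70 RPKM. ERO1A and MXI1, at 26.33 against 25.55 RPKM and 2.41 against 2.36 RPKM, turned to the lower side once GC and length dependence was taken out, and HILPDA, at 5.76 against 5.81 RPKM, to the higher side.

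Of 14 glycolytic enzymes compared, 11 were below 0, where 47.3% of all genes were, and their median log2 ratio was −0.08. After quantile normalization 5 were above 0 in place of 3, with ENO1 and TPI1 turning to the higher side and the median at −0.03. GAPDH was at 5542 RPKM with ATF3 against 6273 RPKM, PGAM1 at 457.04 against 516.29 RPKM, PGK1 at 243.59 against 267.58 RPKM and ENO1 at 2271 against 2400 RPKM. PGAM1, GAPDH and TPI1 share 43.3%, 31.4% and 20.8% of their longest transcripts with other genes, so their values are less certain in all columns. PFKL had the lowest log2 ratio among the enzymes, −0.25, at 26.40 against 31.51 RPKM, and PFKP, the most abundant phosphofructokinase, was at 126.19 against 140.91 RPKM. ENO2 stood apart from the other enzymes, at 44.89 against 40.01 RPKM, a log2 ratio of 0.16. PKM was at 1418 against 1410 RPKM and HK2 at 12.43 against 12.08 RPKM. Together the enzymes summed to 11947 RPKM with ATF3 and 12952 RPKM in the control, and GAPDH, the largest of them, made most of that difference.

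The transport genes split within each pair. SLC2A1 was at 33.38 RPKM with ATF3 against 38.04 RPKM, whereas SLC2A3 was at 19.54 against 17.03 RPKM, so that SLC2A3 held 36.9% of their sum with ATF3 and 30.9% in the control. Of the SLC2A3 transcript, 21.5% is shared with other genes, mainly its paralog SLC2A14. SLC16A3, the lactate exporter known to be induced by HIF, was at 108.24 against 131.89 RPKM, a log2 ratio of −0.28 that with ANGPTL4 makes up the 2 members past 1.2-fold. SLC16A1 was at 58.65 against 57.47 RPKM and turned to the lower side once GC and length dependence was taken out. LDHA and LDHB were at 981 against 947 RPKM and 387 against 358 RPKM. Of the HIF subunits, HIF1A was at 40.33 against 37.79 RPKM, ARNT at 7.76 against 6.86 RPKM and EPAS1 at 11.34 against 13.31 RPKM.

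The C8161 ratios ran with base composition. Across the 43 members, Spearman's rho of the ratio with the GC content of the longest transcript was −0.54, and across all genes −0.42; in A2058 these were 0.04 and 0.09. These values describe genes that share the same libraries and are not independent. The glycolytic enzymes compared in C8161 had a median GC content of 53.2% and the HIF targets 49.6%. After a cubic fit of the ratio on GC content and on transcript length was subtracted, the enzyme median was −0.05 in place of −0.08, with 4 of 14 above 0, and the target median was 0.05 in place of 0.06. ANGPTL4 and SLC16A3, with 63.3% and 62.7% GC, then had log2 ratios of −0.21 and −0.18, and 0 members stayed past 1.2-fold. The ratio of NDRG1 was 0.24 after removal, that of PGK1 −0.17 and that of GAPDH −0.10.

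**Figure D5:**
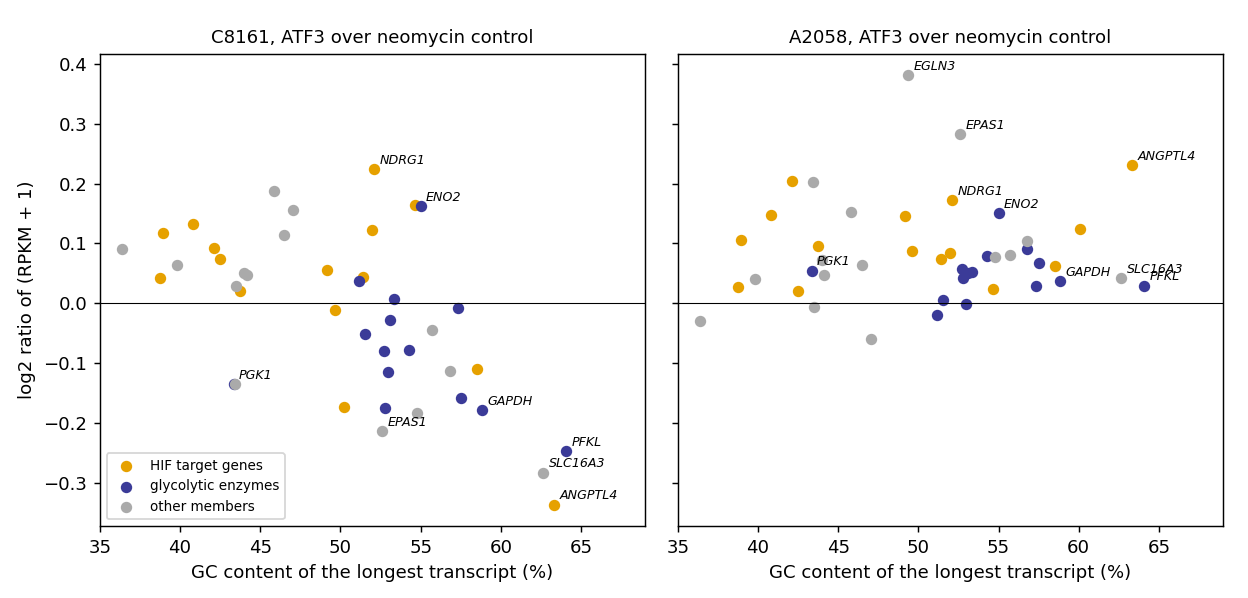
Log2 ratio of RPKM + 1 with ATF3 over neomycin control (vertical) against GC content of the longest transcript in percent (horizontal), for the members compared in C8161 (left) and A2058 (right), with 1 point per gene coloured as HIF target, glycolytic enzyme or other member. In C8161 the GC-rich PFKL, SLC16A3 and ANGPTL4 lie lowest; in A2058 no such run with GC content is seen.

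The ATF3 ratios of the lines were then set side by side; they share no column. Of 42 members compared in both, 18 were above 0 in both lines, where 25.6% of the 10331 genes were, and 19 were below 0 in C8161 and above 0 in A2058, where 25.4% were. The members listed as HIF targets and those listed as enzymes parted here. These lists do not separate HIF-regulated genes from others, since HIF also switches on genes of glycolysis. Of 14 targets, 11 were above 0 in both lines, and of 14 enzymes, 10 were below 0 in C8161 and above 0 in A2058. NDRG1, SLC2A3, ENO2 and P4HA1 agreed in sign between the lines with the largest lesser ratio, at 0.17, 0.15, 0.15 and 0.13. By 1.2-fold or more, the ratio was lower in C8161 than in A2058 for 5 members, where 6.08% of genes were, and higher for 0, where 4.85% were. The 5 were ANGPTL4, EPAS1, PDK3, SLC16A3 and PFKL, with differences of −0.57, −0.50, −0.34, −0.33 and −0.28. ATF3 reached different levels in the lines, so line and dose cannot be told apart.

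Other genes of these pathways were taken from lists outside the members. Of 38 other hypoxia-induced genes compared in A2058, 30 were above 0 with ATF3, where 51.3% of all genes were, with a median log2 ratio of 0.06. Past 1.2-fold, 3 were higher, where 2.02% of genes were, and 0 lower, where 1.51% were; 5 lay above the level band and 2 below it, where 2.60% and 2.61% of genes did. In C8161, 20 of 37 were above 0, where 52.0% of all genes were, with a median of 0.01, which turns to −0.01 after quantile normalization. There 1 was higher past 1.2-fold, where 2.19% of genes were, and 1 lower, where 2.71% were. In A2058 IGFBP3, an IGF-binding protein, was highest at 76.95 against 60.81 RPKM, and STBD1, a glycogen-binding protein that shares 57.5% of its transcript with FAM47E-STBD1, was lowest at 9.18 against 10.75 RPKM. In C8161 CCNG2 was highest at 5.88 against 3.89 RPKM and RAB20 lowest at 4.31 against 5.69 RPKM. The HIF pathway regulators outside the members had medians of −0.02 in C8161 over 17 genes and of 0.00 in A2058 over 18. Among them the coactivator EP300 was highest in C8161, at 11.27 against 9.67 RPKM, and lowest in A2058, at 15.91 against 17.74 RPKM. ELOB, a subunit of the VHL ligase, was lowest in C8161 at 83.75 against 102.77 RPKM, and USP20 highest in A2058 at 5.15 against 4.40 RPKM.

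The pentose phosphate pathway, which branches from glycolysis, had the directions of the enzymes: 10 of 12 genes were below 0 in C8161, where 47.3% of all genes were, with a median of −0.11. In A2058, 11 of 12 were above 0, where 51.3% of all genes were, with a median of 0.04. TALDO1 was lowest in C8161 at 332 against 397 RPKM, and PGD highest at 95.85 against 91.90 RPKM. In A2058 PRPS1 was highest at 27.51 against 25.64 RPKM and TKT lowest at 424.39 against 424.41 RPKM. Genes of pyruvate entry into mitochondria, a list that also holds pyruvate dehydrogenase and its kinases, had medians of 0.00 over 11 genes in C8161 and 0.03 over 12 in A2058. The pyruvate carrier subunit MPC1 was lowest in C8161, at 7.36 against 8.11 RPKM, and highest in A2058, at 13.60 against 12.15 RPKM. PDHX was highest in C8161 at 18.67 against 17.34 RPKM, and DLAT lowest in A2058 at 29.25 against 30.38 RPKM. The remaining isozymes and glucose transporters had medians of −0.02 over 11 genes in C8161 and −0.01 over 13 in A2058. In C8161 BPGM was highest at 3.23 against 3.0 RPKM and SLC2A8 lowest at 3.98 against 4.77 RPKM, and in A2058 G6PC3 was highest at 117.44 against 111.64 RPKM. LDHC, the testis form of lactate dehydrogenase, was lowest in A2058 at 2.26 against 3.69 RPKM. Between the controls, PDK4, a further pyruvate dehydrogenase kinase named after its values were seen, was at 0.05 RPKM in C8161 and 32.8 RPKM in A2058.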

How the data were processed

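Per the file headers, the authors' deposited values are RPKM, given to 2 decimals in 1 column per A2058 library and per combined C8161 arm; whether the C8161 values are means or come from pooled reads is not given in the sources used here. Per the submitters' processing notes, Bowtie2, RSEM and hg38 were used; annotation, strand and versions are not given there. Symbols and coordinates came from RefSeq (GRCh38.p14), matched for 18156 of 18478 identifiers; GC content, length and shared 50-base stretches (a gene counts as sharing most of its sequence from 50%) from the longest GENCODE transcript, available for 17847 genes and all 46 members. From the deposited RPKM, log2(RPKM + 1) ratios were computed in Python 3.11.15 with pandas 2.3.3 and NumPy 2.4.6 over genes with at least 1 RPKM in either column. The planned fit across libraries could not be run with 1 value per arm, so nothing was tested. Ratios and calls were checked on simulated data, with planted changes larger than most reported here and in genes of at least 5 RPKM. That check assumed a depth for C8161 and did not cover smaller changes, lower genes or the spread between cultures. Members and lists were chosen with earlier results of these data known. Genes of other lists were named as the highest and lowest ratio in each line at a mean of at least 2 RPKM; promoters were printed for at most 5 members and not for chromosome 8. Alternatives were a pseudocount of 0.1, no minimum or 5 RPKM, quantile normalization, centring, removal of GC and length trends, and leaving out members that share most of their sequence.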

Additional observations from a re-analysis of the deposited data

Results flagged for a closer look

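With 1 value per arm, the members whose log2 ratio with ATF3 over control was at least 0.1 in size and of opposite sign in the lines were picked out; the difference between the lines was not tested. ANGPTL4 was at −0.34 in C8161 and 0.23 in A2058, a difference of −0.567. EPAS1 was at −0.21 and 0.28, a difference of −0.496. PDK3 was at −0.13 and 0.20, a difference of −0.337. PFKFB4 was at −0.11 and 0.10, a difference of −0.217. The C8161 levels of PFKFB4 were 1.32 RPKM with ATF3 and 1.51 RPKM in the control. EPAS1, PDK3 and PFKFB4 lay inside their level bands in both lines. ANGPTL4 lay below its band in C8161 and inside it in A2058. The share of all genes that meet the same rule was not computed, so whether these members stand out is not known.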

How the results depend on the processing

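No paired analysis was possible because each arm has 1 value per gene, and leaving out single libraries was not possible for the same reason. Medians and counts were recomputed over 7 alternatives, and isozyme shares under quantile normalization alone. Of the 283 recomputed values, 268 stayed within 0.05 with the same direction (medians), within 1.5 times (counts) or within 2 percentage points (shares). The tolerance of 0.05 is about as large as many of the ATF3 medians, so staying within it says little about their size. The C8161 enzyme median ranged from −0.0857 to −0.0331 and counts as within it. Values outside these limits follow. The C8161 median of all members, 0.01, was −0.0048 with the GC and length trends removed and −0.008 without ANKRD37 and LDHB, which share most of their sequence, so its sign is not settled. The number of members lower past 1.2-fold in C8161, 2, was 1 with a minimum of 5 RPKM, where ANGPTL4 is no longer compared, and 0 with the trends removed. In A2058 the 2 members higher past 1.2-fold became 0 at that minimum, since EGLN3 and EPAS1 lie under it. The 5 members with a lower ratio in C8161 than in A2058 became 2 at that minimum and 3 with the trends removed. For the controls, the members' median of −0.84 was −0.6796 after quantile normalization and −0.6499 after centring, and the 2 members higher past 2-fold became 1 at a minimum of 5 RPKM. Among the C8161 lists, other hypoxia-induced genes had a median of −0.0085 after quantile normalization and pyruvate entry genes one of −0.0021 after centring and −0.0228 with the trends removed. In A2058 the other isozymes had a median of 0.0013 at a minimum of 5 RPKM. The number of enzymes above 0 in C8161 was 5 after quantile normalization. In A2058 the number of members above 0 ranged from 36 to 40 over the alternatives, and the median from 0.0498 to 0.0681. For single members past a fold, no alternative tried turned the sign. Members under the fold were not included in that count. Over single members in all comparisons, 748 of 917 recomputed ratios stayed within 0.05. Except as stated with the results above, the cause of each shift was not tested. Values near 1 RPKM rest on few reads in A2058, where 1 read on 1 kb is worth about 0.05 RPKM.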
